A study of Mus musculus with 8 samples.

Results

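Cytokines and chemokines are secreted proteins through which cells signal inflammation, growth and movement, and their receptors decide which cells respond. In liver, hepatocytes answer interleukin 6 and tumour necrosis factor with the acute phase response, while resident macrophages (Kupffer cells), endothelial and stellate cells are known sources of many of the ligands. Interleukins mostly signal through paired receptor chains and Janus kinases, chemokines through receptors coupled to G proteins, and the tumour necrosis factor (TNF) family through trimeric receptors that lead to the transcription factor NF-κB.

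The genes described here are those whose platform symbol starts with Il, Ccl, Cxcl, Ccr or Cxcr followed by a digit, or with Tnf. They came to 103 genes out of 8251 with a probe set of a single symbol, and were read by 119 probe sets; the brightest probe set stood for each gene. They fell into 19 interleukins, 21 interleukin receptor chains, 14 CC and 8 CXC chemokines, 13 chemokine receptors, 6 TNF family ligands, 10 TNF family receptors, and 6 antagonists and decoys. The other 6 have symbols starting with Tnfaip and are called TNF-induced proteins here after that name.

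Liver RNA came from 8 old female mice of the Ames stock, which carries a recessive allele (df) causing pituitary dwarfism; all 8 were phenotypically normal, either +/+ or +/df, and the labels do not say which. They were killed at 24 to 26 months after being fed 30% less than freely fed normal females ate, and each was hybridised to an Affymetrix U74Av2 array. This calorie-restricted group was the only group, so the values describe where each transcript's signal lay and how it varied between animals, with no contrast of diet or genotype. Signals are in arbitrary units, normalized between arrays and given as mean ± SD over 8 arrays. Multiples of the median probe set are taken from the mean of log2 signals, so they differ somewhat from the ratio of the printed means. The median probe set had a signal of 156, and values under 24.6 were raised to that floor. Because probes differ in how strongly they bind, a signal places a probe set on the array's scale and does not rank one gene's RNA against another's. In whole liver, fewer cells of a type and less RNA per cell cannot be told apart.

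All 9 hepatocyte markers measured were called above the median. Over all genes 53.3% were, and the marker counts below are to be read beside that share. Of 14 macrophage and Kupffer cell markers 10 were called above, with a summed signal from 7512 on replicate 6 to 9514 on replicate 4, against 1 of 13 T and NK cell markers (Cd4) with a summed signal of 558 to 803. Of 11 neutrophil markers 3 were called above (Csf3r, Elane and Lcn2). Replicates 5 and 6 stood apart in controls of RNA integrity. The 3′ set of Gapdh exceeded its 5′ set by 4.35 on the log2 scale on replicate 5, while the 7 remaining arrays lay between -0.24 and 0.33. Pyruvate carboxylase gave 4.33 and 4.30 on those arrays and 1.42 to 2.76 on the remaining 6. Genes that become called above without either array are named where they are described. Changes among genes called below are given only as counts.

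Background was taken from 63 reference genes chosen as typical of eye, testis, pituitary and nervous system, whose median signal was 67.6. That no liver cell expresses any of them was not checked. A member whose mean log2 signal was at or below that level is called near background here, one past limma's test above the median is called above, and the rest lie between. For some such genes the arrays still gave bright signals: 11 of the 63 reference genes (17.5%) were called above the median, and the brightest had a mean of 902. A signal above the median therefore did not by itself separate members from genes chosen as typical of other tissues.

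Most cytokine, chemokine and receptor genes were dim in these livers. By limma's test against the median of all probe sets, adjusted over all 12422 of them, 16 of the 103 members (15.5%) were called above, where 53.3% of all genes (and 44.9% of all probe sets) were, and 72 (69.9%) were called below, where 36.8% of all genes were. The other 15 were not called. Called above with at least 2 times the median were 12 members (11.7%), against 43% of all genes. Of the 63 reference genes 8 (12.7%) passed the same line, so it did not separate members from them either. On all 8 arrays 14 members exceeded the median, against 49.4% of all genes. Near background lay 67 members (65.0%), against 27.4% of all genes, and 20 lay between. This count depends on the line: 36 members lay at or below the 75th percentile of the bacterial control sets, and 52 of 102 were near background when probe sets with a suffix for shared sequence or relaxed design were left out. On every array 9 members were at the floor (8.74%, against 5.48% of all genes), and 57 were at the floor on at least 1 array. The median member had a signal of 39.97, while the median gene, by its brightest probe set, had 228. Between 21 members (replicate 1) and 26 (replicate 4) exceeded the median on a given array.

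**Figure D1:**
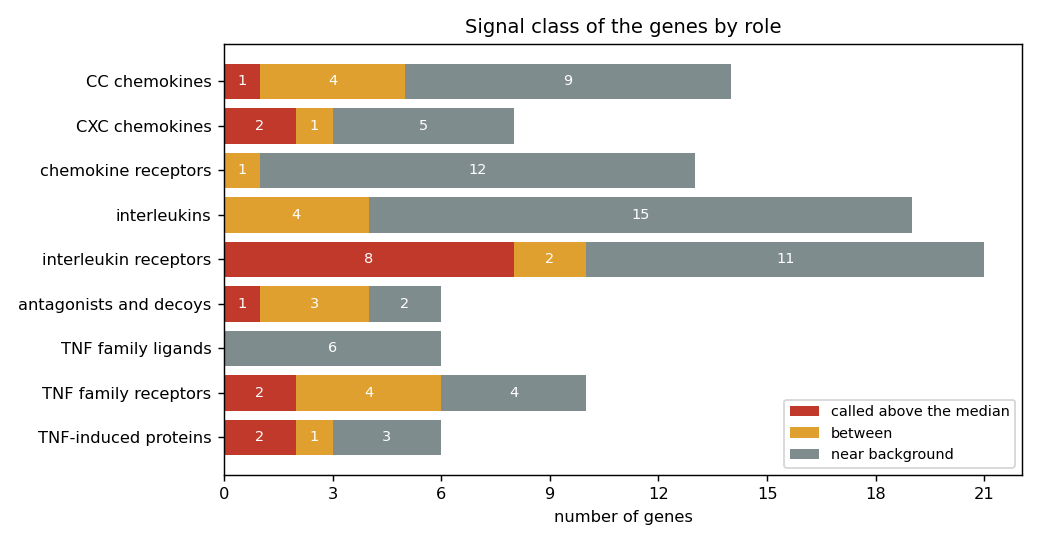
Number of genes (x axis) in each role (y axis), split into those called above the median probe set by limma, those between, and those at or below the median of the reference genes. Interleukin receptors hold 8 of the 16 genes called above, or 8 of the 21 such chains, beside 53.3% of all genes called above. None of the interleukins, chemokine receptors or TNF family ligands counted here was called above.

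The genes called above divided by role. They were 8 of 21 interleukin receptor chains, 2 of 10 TNF family receptors, 2 of 8 CXC chemokines, 1 of 14 CC chemokines, 1 of 6 antagonists and 2 of 6 TNF-induced proteins. Over all genes 53.3% were called above. None of the 19 interleukins, 13 chemokine receptors or 6 TNF family ligands was called above. Near background were 15, 12 and 6 of them, where 27.4% of all genes were. The split between receptors and ligands was not tested, since the genes are not replicates.

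**Figure D2:**
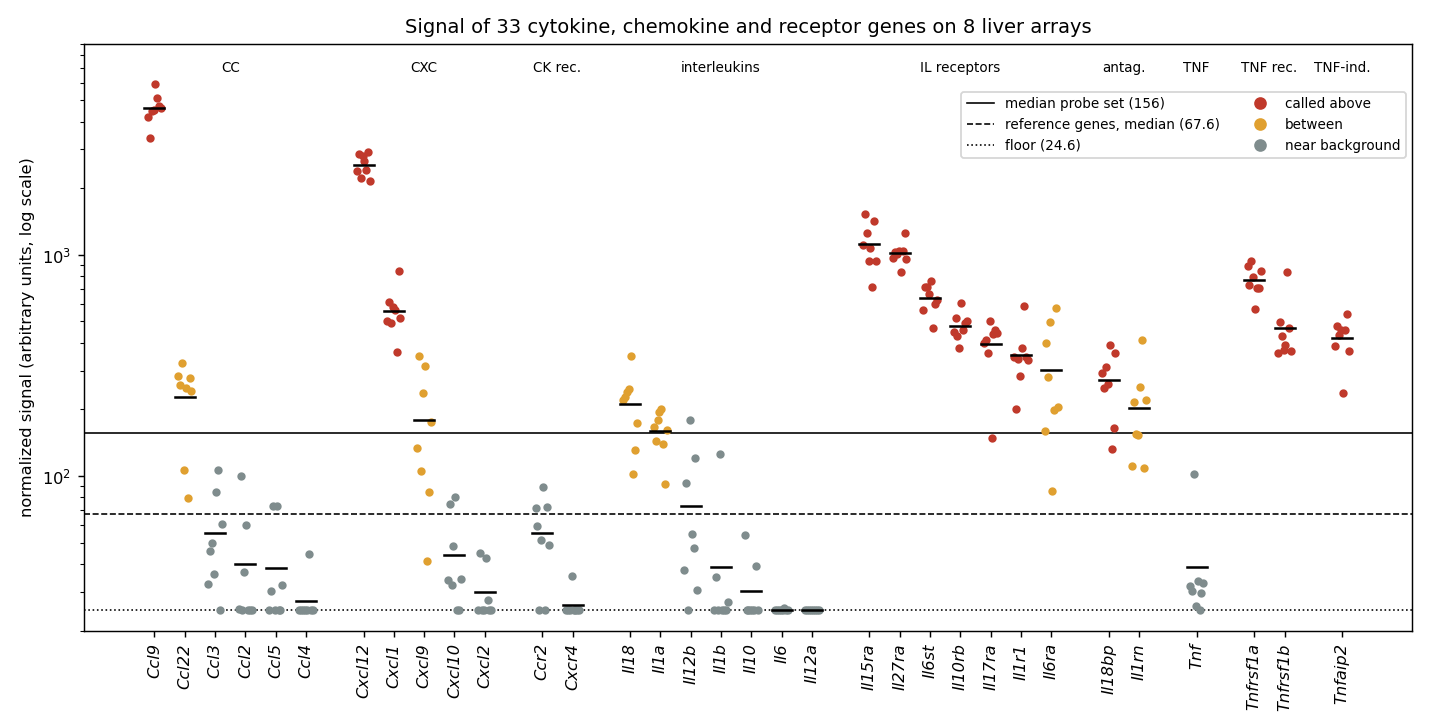
Normalized signal (y axis, log scale) of 33 genes (x axis, grouped by role), 1 point per array and a bar at the mean; the lines mark the median probe set at 156, the reference genes' median at 67.6 and the floor at 24.6. Ccl9, Cxcl12 and the interleukin receptors from Il15ra to Il10rb lie above the median on all 8 arrays, while Il6, Il12a and Cxcr4 lie at or next to the floor.

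Among the ligands, 3 chemokines stood out. Ccl9, a macrophage-attracting CC chemokine that signals through Ccr1, ran from 3385 on replicate 2 over a median of 4572 to 5957 on replicate 5. Its mean of 4632 ± 737 was 29.3 times the median probe set (limma, adjusted p = 9.24e-11). Every array lay far above the median, and the range was 1.76-fold. Cxcl12, which holds blood stem cells and lymphocytes in their niches through Cxcr4, ran from 2150 on replicate 8 over 2530 to 2935 on replicate 7, with a mean of 2553 ± 300 (16.2 times the median; limma, adjusted p = 4.17e-11). Its other probe sets read 1465 ± 540 and 590 ± 92.6, both called above, and the dimmer one has a suffix for shared sequence. Cxcl1, a neutrophil attractant, was 366 on replicate 6, 542 in the median and 844 on replicate 7, a mean of 560 ± 137 (3.50 times the median). All 8 arrays exceeded the median. A further Cxcl1 probe set, also with a suffix for shared sequence, was called above at 299 ± 92.7.

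The genes beside these chemokines on the chromosome were mostly dim. In the RefSeq gene table Ccl5, Ccl9, Ccl6, Ccl3 and Ccl4 lie close together on chromosome 11, and so do Cxcl1 and Cxcl2 on chromosome 5. Ccl6, the neighbour of Ccl9, read 137 ± 25.5 and was not called. Ccl3 read 55.1 ± 28.0, Ccl5 38.4 ± 21.7 and Ccl4 27.1 ± 6.94, all near background, and Cxcl2 was 29.7 ± 8.67. In the other chromosome 11 cluster, Ccl2, Ccl7, Ccl11, Ccl12 and Ccl8 were all near background, and Ccl1 lay between. The Ccl1 signal of 185 ± 59.5 rests on a probe set whose name marks sequence shared with other probe sets, and the gene's other probe set read 33.3 ± 6.92 and was called below.

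The promoters of these neighbours are shown so that a gene called above can be compared letter by letter with a neighbour that was not. Of these neighbours Ccl6 lay between and Cxcl2 was near background. Each is the RefSeq window of GRCm38.p6 from 250 bases before to 50 bases after the start, 5′ to 3′ on the gene's strand; capitals mark a match to the NF-κB consensus on either strand or to TATAAA on the gene's strand. The windows are chr11:83578587-83578886 (minus strand) for Ccl9, chr11:83593038-83593337 (minus strand) for Ccl6, chr5:90890995-90891294 (plus strand) for Cxcl1 and chr5:90903649-90903948 (plus strand) for Cxcl2.
Ccl9: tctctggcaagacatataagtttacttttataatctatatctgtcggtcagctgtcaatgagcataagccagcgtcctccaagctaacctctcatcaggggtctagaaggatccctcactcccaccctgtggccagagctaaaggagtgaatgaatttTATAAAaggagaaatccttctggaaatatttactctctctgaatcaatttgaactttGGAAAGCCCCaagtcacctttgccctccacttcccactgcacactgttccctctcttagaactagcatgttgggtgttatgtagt
Ccl6: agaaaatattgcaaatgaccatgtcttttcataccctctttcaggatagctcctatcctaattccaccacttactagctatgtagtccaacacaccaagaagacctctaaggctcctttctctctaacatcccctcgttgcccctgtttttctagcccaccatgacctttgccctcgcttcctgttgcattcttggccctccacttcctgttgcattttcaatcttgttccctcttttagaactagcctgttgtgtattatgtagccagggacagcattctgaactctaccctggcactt
Cxcl1: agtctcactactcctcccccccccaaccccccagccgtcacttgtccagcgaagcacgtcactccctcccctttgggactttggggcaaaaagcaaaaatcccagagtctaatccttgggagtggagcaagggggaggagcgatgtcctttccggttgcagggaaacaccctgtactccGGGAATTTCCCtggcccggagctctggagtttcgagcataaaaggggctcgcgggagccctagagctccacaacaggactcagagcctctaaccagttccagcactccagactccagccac
Cxcl2: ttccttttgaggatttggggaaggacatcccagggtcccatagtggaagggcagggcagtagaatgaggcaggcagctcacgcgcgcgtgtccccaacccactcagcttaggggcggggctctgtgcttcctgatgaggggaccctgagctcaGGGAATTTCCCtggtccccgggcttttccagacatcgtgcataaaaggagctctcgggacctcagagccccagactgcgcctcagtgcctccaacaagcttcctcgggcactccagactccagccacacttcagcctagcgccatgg
The Ccl9 window held 1 NF-κB match, starting 35 bases before the start, and 1 TATAAA, while the Ccl6 window held neither. The Cxcl1 and Cxcl2 windows held the same match, beginning 71 and 97 bases before the start and read on both strands, although Cxcl1 was called above and Cxcl2 was near background. Over all 32851 windows 8.46% held an NF-κB match. Of the windows matched to members, 6 of 15 for genes called above did, 2 of 23 for genes between and 11 of 61 for genes near background. A match describes letters only, and 82 of the 103 genes had a window.

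None of the remaining chemokines was called above. Ccl22, which attracts regulatory T cells through Ccr4, was 79.8 on replicate 6, 255 in the median and 324 on replicate 3, and was not called (mean 228 ± 87.1; limma, adjusted p = 0.158). Replicates 4 and 6 were below the median and the other 6 arrays above it, and without replicate 6 it was called above (log2 difference 0.61, limma, adjusted p = 0.0200). Cxcl9, an interferon-induced attractant of T cells, spread widely, from 41.3 on replicate 6 over 154 to 348 on replicate 2, and 4 of 8 arrays exceeded the median. Cxcl10, induced by the same signal, ran from the floor to 80.3. Ccl2, the main monocyte attractant, was at the floor on 4 arrays and at 99.8 on replicate 2. Cxcl5, Cxcl13, Cxcl14, Ccl17 and Ccl25 had mean signals of 30.0, 30.0, 39.4, 25.2 and 79.7.

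Chemokine receptors, which mark migrating leukocytes, were almost all dim. Of 13, 12 were called below and lay near background. Cxcr3, the receptor of Cxcl9 and Cxcl10, was the exception at 157 ± 30.1, level with the median probe set. Cxcr4, the receptor of Cxcl12, was at the floor on 7 arrays and 35.3 on replicate 4. Ccr1, a receptor of Ccl9, was at the floor on 6 arrays and 61.5 on replicate 7. Ccr2, the receptor of Ccl2, ran from the floor over 55.4 to 89.6, and Cxcr2, the receptor of Cxcl1, was at the floor on 1 array with a mean of 39.05. Chemokines called above stood beside receptors near background in the same RNA. The 13 T and NK cell markers had a median signal of 33.02, and 11 were near background as well, beside 27.4% of all genes. The 8 B and plasma cell markers had a median of 149, and 4 were called above (Cd79a, Ighm, Ms4a1 and Pax5), beside 53.3% of all genes. The part of leukocyte number in these receptor signals was not tested.

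**Figure D3:**
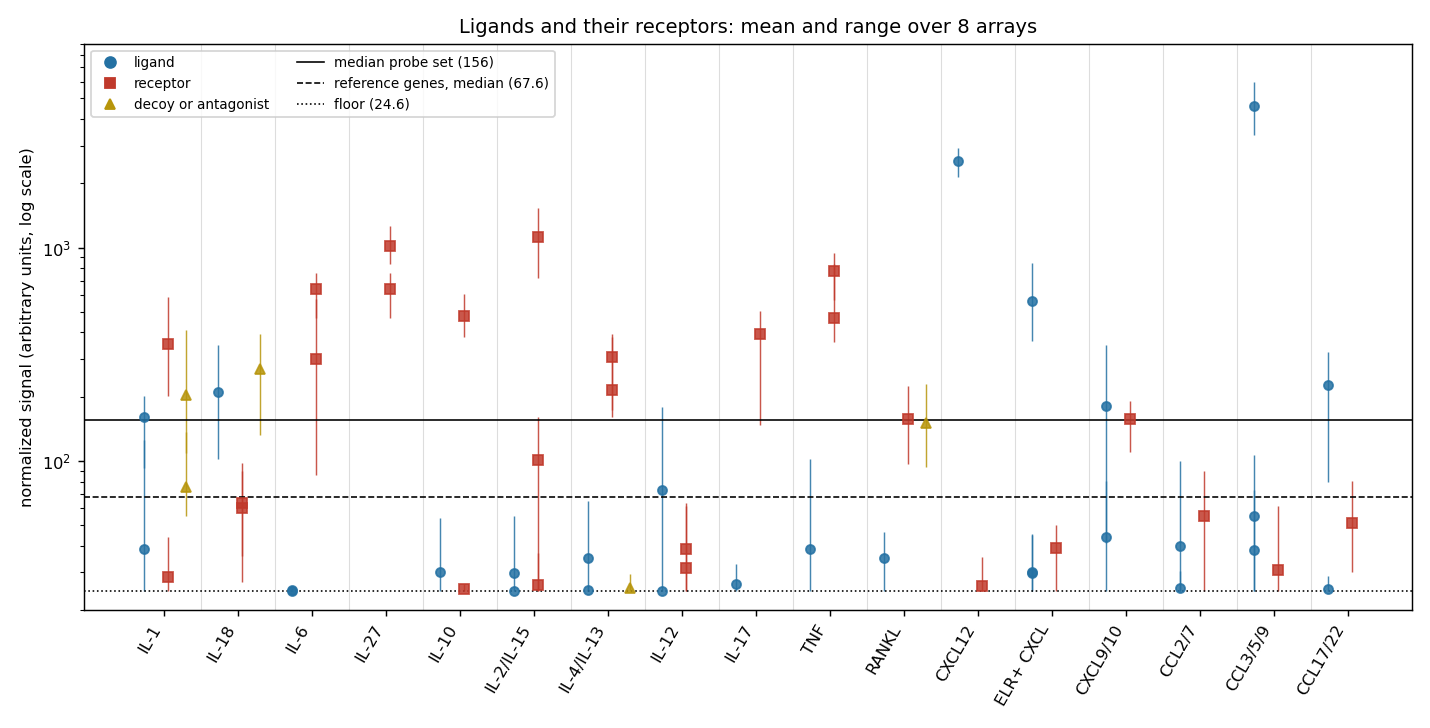
Mean normalized signal (y axis, log scale) of ligands, receptor chains and decoys or antagonists in 17 ligand families (x axis), with bars from the lowest to the highest of 8 arrays. In the IL-6, IL-10, IL-4/IL-13, IL-17 and TNF families at least 1 receptor chain was called above while the ligands shown lie near background; for Cxcl12 and Ccl9 the ligand is bright and the receptor dim.

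Interleukin receptor chains were the largest group among the members called above, with 8 of 21, beside 53.3% of all genes. Near background lay 11 of the 21, beside 27.4% of all genes. Il15ra, the chain that presents interleukin 15, ran from 718 on replicate 6 over 1092 to 1532 on replicate 2, with a mean of 1124 ± 271 (7.01 times the median; limma, adjusted p = 6.88e-08). Il27ra, the specific chain of the interleukin 27 receptor, was 839 on replicate 5, 1019 in the median and 1259 on replicate 7, a mean of 1018 ± 118 (6.48 times the median; limma, adjusted p = 4.68e-10). Neither gene had an array near the median. Together with Ccl9 and Cxcl12 they were the 4 members brighter than every one of the 63 reference genes on the log2 scale.

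The shared signalling chains followed. Il6st (gp130), used by interleukins 6, 11 and 27, ran from 469 on replicate 6 over 647 to 760 on replicate 5 (mean 639 ± 94.9, 4.05 times the median). A further Il6st probe set read 184 ± 53.7 and was not called. Il10rb, a chain shared by interleukin 10 and related cytokines, was 380 on replicate 4, 475 in the median and 606 on replicate 5 (mean 479 ± 67.9, 3.04 times). Its partner Il10ra, which binds interleukin 10 itself, lay at the floor on 5 arrays and reached 26.5 at most.

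Il6ra, which binds interleukin 6 and joins Il6st, differed most from animal to animal among the members with enough signal to be tested. It was 85.6 on replicate 5, 243 in the median and 577 on replicate 7, a 6.74-fold range, and 7 of 8 arrays exceeded the median. Its mean of 300.2 ± 173 was not called (limma, adjusted p = 0.0604). Without replicate 5 it was called above (log2 difference 0.92, limma, adjusted p = 0.0112). Replicate 5 is the array with the raised Gapdh ratio, and 3 of the 7 other arrays, replicates 2, 4 and 7, lay at 399, 496 and 577 against 160 to 280 on the rest.

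Il17ra, which receives interleukin 17, was 148 on replicate 5 and 360 to 502 on the other 7 arrays (median 425, mean 395 ± 108; 2.40 times the median). The low array was not shared by its further probe set, which read 381 ± 79.1 and had its highest value, 468, on replicate 5. Il1r1, the signalling receptor of interleukin 1, was 201 on replicate 2, 341 in the median and 585 on replicate 6 (mean 351 ± 109). Both were called above by limma, with adjusted p-values of 0.000279 and 0.000115.

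The chains of the interleukin 4 and 13 receptor were called above at lower signals, Il4ra at 308 ± 68.8 and Il13ra1 at 215 ± 70.5. A further Il4ra probe set read 56.3 ± 22.6 and was called below, so that the Il4ra call depends on the probe set. Il13ra1 was not called when the suffixed probe sets were left out of the fit. Il13ra1 was at 382 on replicate 5 and no higher than 223 on the other arrays. Of the remaining 12 chains, Il2rb at 100.4 ± 45.5 was called below but above the background line, and 11 were near background. These 11 included both interleukin 12 receptor chains, both interleukin 18 receptor chains, Il1rap, the partner chain of Il1r1, at 28.6 ± 7.22, and Il2ra at 26.2 ± 4.38.

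Of the 19 interleukins themselves, Il18, Il1a and Il16 were not called and lay around the median. Il18, which is made as a precursor and cut by caspase 1, ran from 102 on replicate 6 over 225 to 349 on replicate 5, and 6 of 8 arrays exceeded the median (mean 211 ± 76.8; limma, adjusted p = 0.120). It was called above without replicate 6 (log2 difference 0.49, limma, adjusted p = 0.0230). Il1a was 92.1 on replicate 7, 164 in the median and 202 on replicate 5, level with the median probe set. Of these, Il16, a ligand of CD4, differed least between animals, at 145 ± 15.4.

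The other interleukins were called below, and all of them but Il9 (mean 106) were near background. Il1b was at the floor on 5 arrays and at 126 on replicate 4. Il12b ran from the floor on replicate 3 over 51.1 to 180 on replicate 4, and its partner subunit Il12a stayed at the floor on every array. Il6 was at the floor on 7 arrays with 25.2 on replicate 6; as deposited, its signals ran from 3.8 to 28.0. Il10 was at the floor on 6 arrays and reached 54.3 on replicate 1. Il15, the ligand of the bright Il15ra, was at the floor on 6 arrays and reached 55.3 on replicate 5. For genes at the floor the fitted difference from the median is set by the floor, so only the call is given. A probe set at the floor bounds the signal and does not show that no RNA was present.

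Of the 6 antagonists and decoys 1 was called above, 3 lay between and 2 were near background. Over all genes 53.3% were called above and 27.4% were near background. Called below were 3 of the 6, beside 36.8% of all genes. Il18bp, which neutralises interleukin 18, was 132.3 on replicate 6, 277 in the median and 393 on replicate 5 (mean 271 ± 89.4, 1.64 times the median; limma, adjusted p = 0.00625), and 7 of 8 arrays exceeded the median. Il1rn, the interleukin 1 receptor antagonist, was 109 on replicate 7, 185 in the median and 411 on replicate 6, and was not called. Tnfrsf11b (osteoprotegerin), the decoy of Tnfsf11, read 151 ± 39.3 and was not called. The decoy receptor Il1r2 read 75.4 ± 28.3 and was called below but above the background line. Il13ra2 and Il1f5 were near background.

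Among TNF family ligands and receptors whose symbols start with Tnf, the genes called above were the receptors of Tnf. Tnf itself, the family's main inflammatory ligand, was 102 on replicate 3 and 24.6 to 33.4 on the other 7 arrays. Tnfrsf1a, the receptor that carries most TNF signals in hepatocytes, ran from 570 on replicate 5 over 762 to 939 on replicate 3 (mean 772 ± 119, 4.89 times the median; limma, adjusted p = 1.39e-08). A further Tnfrsf1a probe set, marked in its name as chosen under relaxed design rules, was at 215 ± 83.0 and not called. Tnfrsf1b, the other TNF receptor, was 835 on replicate 6 and 362 to 496 on the other 7 arrays (median 410, mean 465 ± 157). Every array of both receptors exceeded the median. All 6 ligands with such symbols, Tnf included, were near background, among them Tnfsf10 (TRAIL) at 55.5 ± 16.2 and Tnfsf11 (RANKL) at 35.1 ± 8.27. Tnfrsf11a, the receptor of Tnfsf11, read 157 ± 38.0, level with the median. Of the other 7 receptors Tnfrsf17, Tnfrsf18 and Tnfrsf21 lay between, and Tnfrsf4, Tnfrsf8, Tnfrsf9 and Tnfrsf19 were near background. Family genes with other symbols were measured as well. Of such ligands, Lta was called above at 403 ± 102. Cd70 and Ltb were called below but above the background line, and Fasl and Cd40lg were near background. Of such receptors, Ltbr was called above at 1730 ± 253, Cd27 was not called, and Fas and Cd40 were near background.

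Of the TNF-induced proteins, Tnfaip2 was lowest at 238 on replicate 5, and its remaining arrays lay between 369 and 541 (mean 420.3 ± 90.9, 2.62 times the median). Tnfaip8l1, which is named for its likeness to Tnfaip8, was 306 ± 69.3. Both Tnfaip2 and Tnfaip8l1 were called above. Tnfaip3 (A20), the NF-κB feedback inhibitor, was at the floor on all 8 arrays, with deposited signals of 3.3 to 13.1. Tnfaip6 was likewise at the floor.

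Genes that carry these signals inside the cell are given beside the 53.3% of all genes called above. Of 18 Janus kinase, STAT and SOCS genes measured 10 were called above and 2 were near background (Ptpn11 and Stat4). Of 30 genes of NF-κB, Toll, interleukin 1 and TNF signalling 20 were called above and 3 were near background. Among 52 other cytokines and receptors whose symbols fall outside the rule, 16 were called above and 25 were near background. For the interleukin 6 route, Jak1 was at 999.7 ± 51.0 and Stat3 at 1179 ± 287, both called above, and Ptpn11 was at 26.5 ± 4.41. The feedback inhibitor Socs3 was called below at 104 ± 24.1, read by a probe set with a suffix for shared sequence.

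**Figure D4:**
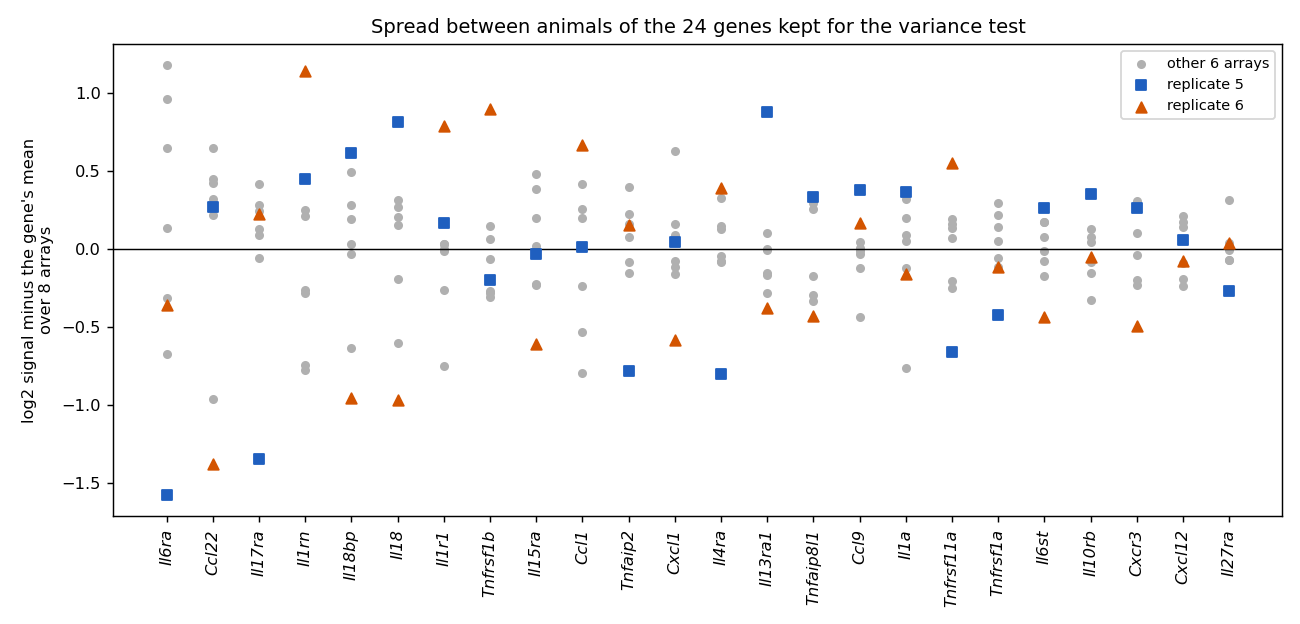
Difference of each array's log2 signal from the gene's mean over 8 arrays (y axis) for the 24 genes kept for the variance test (x axis), ordered from the highest to the lowest variance ratio; squares mark replicate 5, triangles replicate 6 and circles the other 6 arrays. Il6ra spans the widest range, from 85.6 to 577 in signal, and Cxcl12 and Il27ra are among the tightest.

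Spread between animals was tested for the 24 members whose mean log2 signal exceeded that of the middle probe set when all probe sets are ordered by this mean. That filter lies slightly under the signal of 156 and so also kept Il1a, Cxcr3 and Tnfrsf11a; the other 79 members were not tested. limma's variance test, which sets each probe set's variance against that of probe sets of like level, called 0 of the 24 at an adjusted p of 0.05, where it called 0 of 6211 probe sets (0%). At an unadjusted p under 0.05 it gave 1 of the 24, Il6ra, where 5.67% of all probe sets and 4.84% of genes by their brightest probe set passed. After adjustment Il6ra was not called (limma, adjusted p = 0.848). The median log2 variance ratio of the 24 was 0.70, beside 0.12 over all kept probe sets, and 16 of 24 exceeded 0, beside 53.4%. After Il6ra the ratio was highest for Ccl22 (2.26), Il17ra (2.01), Il1rn (1.73) and Il18bp (1.61).

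Replicates 5 and 6 held many of the extremes. Of the 24 members 9 were lowest on replicate 6 and 6 highest there, beside 16.6% and 18.8% of all kept genes. On replicate 5, 7 were lowest and 8 highest, beside 28.3% and 34.1% of all kept genes. Replicate 6 held the lowest Il15ra, Il6st, Cxcl1, Ccl22, Il18 and Il18bp and the highest Tnfrsf1b, Il1r1 and Il1rn. Replicate 5 held the lowest Tnfrsf1a, Tnfrsf11a, Il17ra, Il27ra, Il4ra, Il6ra and Tnfaip2. The share that RNA quality had in these values was not tested; without both arrays all 16 genes called above were called above again, and Il6ra, Il18 and Ccl22 were added, giving 19.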

How the data were processed

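The authors deposited an intensity for each probe set on each array. The labels name an Affymetrix U74Av2 array and a Hewlett-Packard GeneArray scanner; how the images were turned into these values, and whether arrays were scaled, is not given in the sources used here. Controls made up 66 of the 12488 probe sets and were left out of normalization and tests. The other 12422 were quantile-normalized over the 8 arrays, raised to the 20th percentile (24.6) and taken to log2. Each array was taken as 1 animal, as the labels name a mouse each, and their number limits the precision. With limma 3.58.1 in R 4.3.3, an intercept per probe set was tested against the median of all (eBayes with trend and robust prior, 2-sided, Benjamini-Hochberg over all 12422 at 0.05). Variances were tested by a 1-sided F test against a level-dependent prior (7 residual and 4.03 prior degrees of freedom) in the 6211 probe sets whose mean log2 signal exceeded the middle one. Both tests were checked on simulated data. For the variance test the simulated spread was raised much further than any member's, without the level filter. Its power at spreads of the size seen here was not tested. Platform symbols were used; all 103 were the same in the RefSeq table of GRCm38.p6. Probe sets with several symbols were left out.

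The members and lists were chosen with earlier results of these data known. Genes described in full were those called above with at least 2 times the median, the 5 with the highest variance ratio and a set chosen by name; 33 resulted. Near background means at or below the median of the measured reference genes. Alternatives were the deposited scaling, another or no floor, the mean over probe sets, leaving out probe sets with the suffix f, s, g, r or i (called shared-sequence sets) or arrays, a sign test, another prior, and other background lines and level filters.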

Additional observations from a re-analysis of the deposited data

Results flagged for a closer look

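Of the 33 genes described in full, 9 had an array far from the others. This was judged by the gap between the extreme array and its neighbour as a share of the whole log2 range. Chance gives about 1 in 20 such genes, but that rate cannot be set against the 9. Some of the 33 were at the floor on most arrays, which sets the gap share, and some were chosen for a high variance ratio. The share over all genes is not given here. Those with measured signal on every array were Il17ra, low on replicate 5 (gap share 0.728), Tnfaip2, low on replicate 5 (0.533), Tnfrsf1b, high on replicate 6 at 835 (0.624), and Il1a, low on replicate 7 at 92.1 (0.534). For Tnf, high on replicate 3 at 102 (0.785), and Il1b, high on replicate 4 at 126 (0.788), the other arrays lay at or near the floor. For Il6 (0.983), Ccl4 (0.999) and Cxcr4 (0.999) all other arrays were at the floor, so the gap share holds no order among them.

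Of 7 probe sets with several symbols, at least 1 of them matching the rule, 3 were called above the median, with means of 1443 ± 242, 522 ± 96.5 and 201 ± 31.9 (SD, n = 8). They cannot be given to 1 gene and were not counted among the members.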

How the results depend on the processing

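Over 16 alternatives the number of members called above ran from 14 (exact sign test) to 19 (without replicates 5 and 6) around 16, and the number called below from 69 to 76 around 72. Leaving out 1 array gave 16 to 18 above, 71 to 74 below and 63 to 67 near background. The 67 near background became 36 with the line at the 75th percentile of the 15 bacterial control sets, whose means were 4.61 to 56.9, and 72 with the 75th percentile of the reference genes. No planned or added setting called a member variable. No member described in full changed direction while called. Il6ra was called above with the deposited scaling (adjusted p = 0.0314), the higher floor (0.0373) and no floor (0.0276, added after seeing the data), all by limma. Il4ra was lost with the mean over probe sets, Il13ra1 without shared-sequence sets, and Il17ra and Il18bp in the sign test, whose smallest p needs all 8 arrays on 1 side. No paired analysis was possible because there is 1 group. Members near the floor have only a bound, and their spread between animals cannot be read.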
